A study of Mus musculus with 6 samples.

Results

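Heat shock proteins and their DnaJ partners were read in sorted haematopoietic stem cells (HSC) of mouse bone marrow, in wildtype and in PU.1 knockdown animals. The genes were taken by symbol: all genes of the Hspa, Hsph, Hsp90, Hspd, Hspe and Hspb families, the DnaJ families Dnaja, Dnajb and Dnajc, and Hsf2, Bag3 and Stip1. This gave 75 genes on 178 probe sets, of 18186 genes and 44991 probe sets in all. Hsf1, which the choice also names, had no probe set assigned to it alone and is not analysed here, nor are Hsp90ab1 and Dnajc19. The symbol rule also took Hspbp1 and Hspbap1, which bind heat shock proteins and are not chaperones of these families.

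Wildtype HSC (WT HSC) and PU.1 knockdown HSC (PU.1 KD HSC) were each represented by 3 pools, and each pool held the RNA of 3 animals on 1 Affymetrix mouse expression array. Spi1 encodes PU.1, a transcription factor that myeloid cells and B cells need in order to develop. How PU.1 was lowered, which markers the sort used, and strain and age are not given in the labels. Pooling averages over animals, so that differences between single animals cannot be seen.

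Heat shock proteins bind unfolded proteins and help them fold, or hold them until they can be degraded. Hsp70 proteins (the Hspa genes) work in cycles of ATP hydrolysis that J domain proteins (the Dnaj genes) start and exchange factors such as Hsp110 (Hsph1) and Bag3 end, and Stip1 passes clients from Hsp70 to Hsp90. Under heat or other protein damage the transcription factor HSF1 binds inverted GAA repeats, the heat shock elements, in the promoters of inducible genes. Hspa1a and Hspa1b, the inducible Hsp70 genes, are low in unstressed cells and respond most readily.

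The targeted gene and the cell type markers were read first. Spi1 (probe set 1418747_at) had deposited intensities of 1120, 718 and 1053 in wildtype pools 1, 2 and 3, against 362, 360 and 119 in knockdown pools 1, 2 and 3. Values from here on are log2(intensity + 16) after quantile normalisation unless called intensities. On that scale Spi1 differed by -1.76 (standard error, SE, 0.43). Of the 12 stem cell genes listed, 10 were measured, and their mean level ran from 9.45 to 10.16 over the wildtype pools and from 9.48 to 9.53 over the knockdown pools. Markers of other cells were present too, with summed intensities over 12 neutrophil genes of 62192, 24244 and 51104 in wildtype pools 1, 2 and 3. In knockdown pools 1, 2 and 3 the sums were 61932, 47816 and 59436. The 10 stem cell genes summed to 8162, 15907 and 8873 in wildtype and 9120, 9207 and 9610 in knockdown pools. That was below the neutrophil sum in every pool. Wildtype pool 2 had both the highest stem cell mean and the lowest neutrophil sum. Sums over different probe sets do not give shares of cells. For each of the 10 marker lists, 0 genes were at the lower limit of the scale in all pools. That limit is an intensity of 1. Few of all probe sets were at it, from 338 in wildtype pool 2 to 487 in knockdown pool 3. A gene above it need not be expressed, so this count does not show which markers were present.

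The 2 inducible Hsp70 genes stood out among the members. Hspa1a encodes the stress-induced cytosolic Hsp70, and Hspa1b, a neighbouring copy, encodes a nearly identical protein. Which of both transcripts a probe set reads could therefore not be separated here. Their promoters, taken from the RefSeq table of build GRCm38.p6, show how alike the copies are, and the 250 bases before each annotated start are given 5′ to 3′. Capitals mark the core of a heat shock element, a pair of inverted repeats written GAANNTTC or TTCNNGAA, which was searched in that window; each of these reads the same on both strands. Hspa1a lies at chr17:34972157-34972406 and Hspa1b at chr17:34959239-34959488, both on the minus strand.
Hspa1a: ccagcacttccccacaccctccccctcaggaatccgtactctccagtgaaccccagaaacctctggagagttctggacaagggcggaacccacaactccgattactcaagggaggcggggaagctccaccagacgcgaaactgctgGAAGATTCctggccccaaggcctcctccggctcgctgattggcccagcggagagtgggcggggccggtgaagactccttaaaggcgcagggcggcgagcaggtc
Hspa1b: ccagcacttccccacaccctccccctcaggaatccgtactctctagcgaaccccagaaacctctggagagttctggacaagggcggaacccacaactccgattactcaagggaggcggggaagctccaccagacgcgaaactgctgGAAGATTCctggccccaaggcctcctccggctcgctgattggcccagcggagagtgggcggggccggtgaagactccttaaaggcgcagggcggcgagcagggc
Over the 250 bases the copies differed at 3 positions (98.8% identity), which are C44T, T47C and T249G from Hspa1a to Hspa1b, counted from 1 at the 5′ end. The same core, GAAGATTC, stands in both at positions 147 to 154, which is 104 to 97 bases before the start. Such a core is found in 12.8% of the 32851 promoter windows of the table, so its presence alone is not particular to these genes.

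Hspa1a (1452388_at) was lower in the knockdown group, with the knockdown pools far apart. Its intensities were 1135, 478 and 796 in wildtype pools 1, 2 and 3, against 86.7, 573 and 86.9 in knockdown pools 1, 2 and 3. Knockdown pools 1 and 3 thus lay below every wildtype pool, and knockdown pool 2 lay between wildtype pools 2 and 3, so the groups overlapped. On the log2 scale the means were 9.56 ± 0.65 (SD, n = 3) in wildtype and 7.54 ± 1.42 (SD, n = 3) in knockdown pools. Knockdown minus wildtype was -2.02 (SE 0.66), with a 95% interval from -3.54 to -0.50, so that the knockdown mean was 0.247 times the wildtype one. Its limma p was 0.0158, the smallest of the 75 members, but the adjusted p by Benjamini-Hochberg over all probe sets was 0.608. The exact two-sided permutation p was 0.2, where 3 against 3 cannot go below 0.1.

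Hspa1b was read by 3 probe sets, and all of them repeated this order of the knockdown pools. On the brightest, 1452318_a_at, the intensities were 4160, 2104 and 2953 in wildtype pools 1, 2 and 3, against 739, 3714 and 896 in knockdown pools 1, 2 and 3. Knockdown pools 1 and 3 were again the lowest of the 6, while knockdown pool 2 was second only to wildtype pool 1. Means were 11.52 ± 0.49 (SD, n = 3) in wildtype and 10.46 ± 1.20 (SD, n = 3) in knockdown pools, which is -1.06 for knockdown minus wildtype (SE 0.55, 95% interval -2.34 to 0.21). Neither the limma p of 0.0895 nor the exact permutation p of 0.3 passed. The probe sets 1427127_x_at and 1427126_at differed by -1.10 (SE 0.58) and -1.38 (SE 0.62).

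Without knockdown pool 2, Hspa1a differed by -2.82 (limma p 0.000106) and Hspa1b by -1.76 (limma p 0.000485), and neither passed adjustment over all probe sets (adjusted p 0.397 and 0.414). Without knockdown pool 1, knockdown pool 3 or wildtype pool 1, the limma p of Hspa1a was 0.0627, 0.0546 and 0.0545. For Hspa1b the limma p was 0.274, 0.251 and 0.225 in that order. Leaving out knockdown pool 2 was the only one of 15 alternatives in which Hspa1b passed at an unadjusted p under 0.05. The spread within groups was among the widest on the array: the pooled within-group SD was 1.10 for Hspa1a and 0.92 for Hspa1b, at the 99.3 and 98.9 percentile of 18186 genes. The median over all genes was 0.21 and over the 75 members 0.195. Hspa2, a testis-enriched Hsp70 named after its values were seen, came next among the members at 0.69, and the next was Dnajb12 at 0.462.

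**Figure D1:**
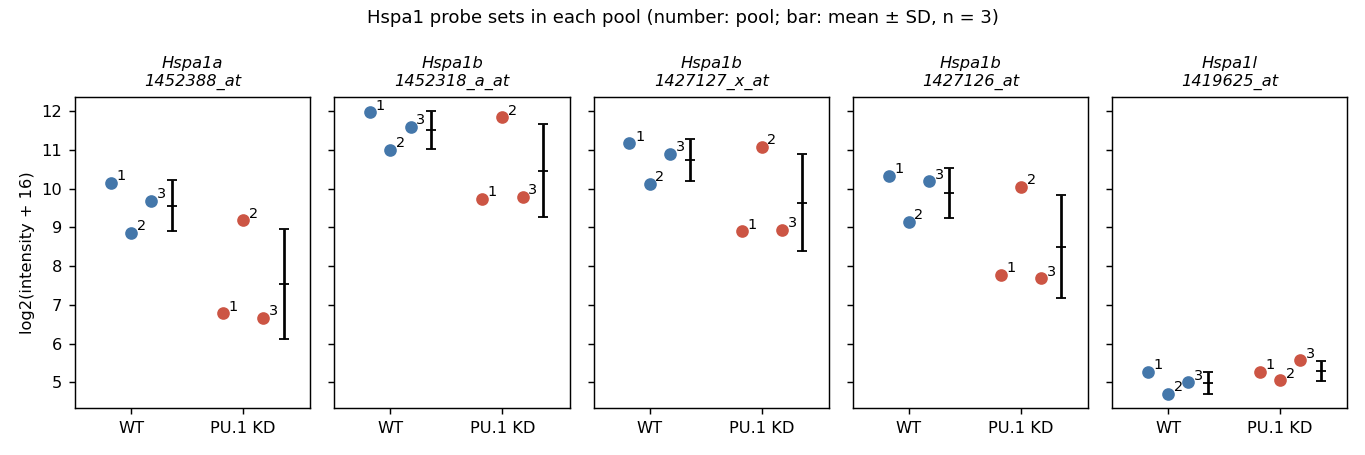
Level of each Hspa1 probe set, as log2(intensity + 16), in 3 wildtype (blue) and 3 PU.1 knockdown (red) pools, numbered by pool, with the mean ± SD of each group (n = 3); levels may be compared within a panel but not between panels. On the Hspa1a probe set and all 3 Hspa1b probe sets knockdown pools 1 and 3 are lowest and knockdown pool 2 lies within the range of the wildtype pools, while Hspa1l stays near the bottom of the scale in all pools.

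Hspa1l, the third gene of the cluster and a testis-enriched Hsp70, was dim in every pool. Its intensities were 23.1, 9.99 and 16.5 in wildtype pools 1, 2 and 3, against 22.0, 17.0 and 31.4 in knockdown pools 1, 2 and 3. The groups overlapped, and the difference of 0.31 (SE 0.20) had an exact permutation p of 0.2. Its promoter is printed for contrast, since it lies beside Hspa1a on the opposite strand, at chr17:34972453-34972702 (plus strand), and held 0 of the GAANNTTC or TTCNNGAA cores.
Hspa1l: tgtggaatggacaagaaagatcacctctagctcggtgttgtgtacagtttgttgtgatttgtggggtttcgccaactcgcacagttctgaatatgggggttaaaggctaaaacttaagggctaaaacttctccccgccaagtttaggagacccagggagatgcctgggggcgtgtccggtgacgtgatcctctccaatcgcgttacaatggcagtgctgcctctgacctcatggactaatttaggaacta
That window lacks only the letters searched, and nothing follows from it about HSF1.

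Other values moved across the same pools. Spi1 itself was 8.73, 8.55 and 7.06 in knockdown pools 1, 2 and 3, so its lowest pool was knockdown pool 3 alone. Immediate early genes such as Egr1 and Jun, which handling of cells also induces, had a mean over the list of 9.67 in the first, 9.84 in the second and 9.62 in the third wildtype pool, against 9.32, 9.09 and 8.86 in the knockdown pools in that order. Their knockdown pool 2 therefore lay below all wildtype pools, unlike for Hspa1a and Hspa1b. Of their 18 genes, 16 (88.9%) had a lower mean in knockdown pools, beside 46.6% of all genes. At an unadjusted limma p under 0.05, 11 (61.1%) were lower, beside 3.52%, and 1 (5.56%) was higher, beside 4.1%. The groups did not overlap for 11 with lower values (61.1%, beside 5.39%) and for 1 with higher values (5.56%, beside 8.42%). Of the 18 genes, 0 passed adjustment. Erythroid markers, with 7 of 11 measured, averaged 8.75, 9.76 and 8.88 for knockdown pools 1, 2 and 3 beside 9.55, 8.35 and 9.26 for wildtype ones, with summed intensities of 3392 to 7126 in wildtype and 3900 to 9857 in knockdown pools. Megakaryocyte markers went the other way, at 8.90, 7.34 and 8.77 in knockdown pools 1, 2 and 3, with sums of 8367 to 17664 in wildtype and 3132 to 8847 in knockdown pools. Endothelial and stromal markers averaged 8.08, 7.08 and 7.98 in knockdown pools 1, 2 and 3, beside 7.65, 6.90 and 8.02 in wildtype ones. On average, monocyte and B lymphoid markers were lowest in knockdown pool 3, and T and NK cell markers in wildtype pool 2. Eosinophil markers summed to 2011 to 12683 in wildtype and 243 to 1214 in knockdown pools, and mast cell and basophil markers to 635 to 1282 and 1893 to 4359. The part of these cells and of handling in the values of the members was not tested. In RNA from pooled sorted cells, fewer cells with a transcript and less of it per cell cannot be told apart.

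Beyond Hspa1a and Hspa1b the chaperone genes differed little between the groups. Of the 75 members, 0 passed limma at a Benjamini-Hochberg adjusted p under 0.05, as did 0% of all genes. At an unadjusted p under 0.05, 1 member was higher in knockdown pools (1.33%, beside 4.1% of all genes) and 1 was lower (1.33%, beside 3.52% of all genes). The groups did not overlap for 3 members with higher values (4% beside 8.42% of all genes) and for 1 with lower values (1.33% beside 5.39%). The median difference of the members was 0.020 and that of all genes 0.018. For 70 of the 75 members the difference was under 0.5 in size, and the 5 others were Hspa1a, Hspa1b, Hsph1, Hspa12b and Dnajb9. Means were higher in knockdown pools for 42 members and lower for 33, but with the values as deposited 32 were higher.

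**Figure D2:**
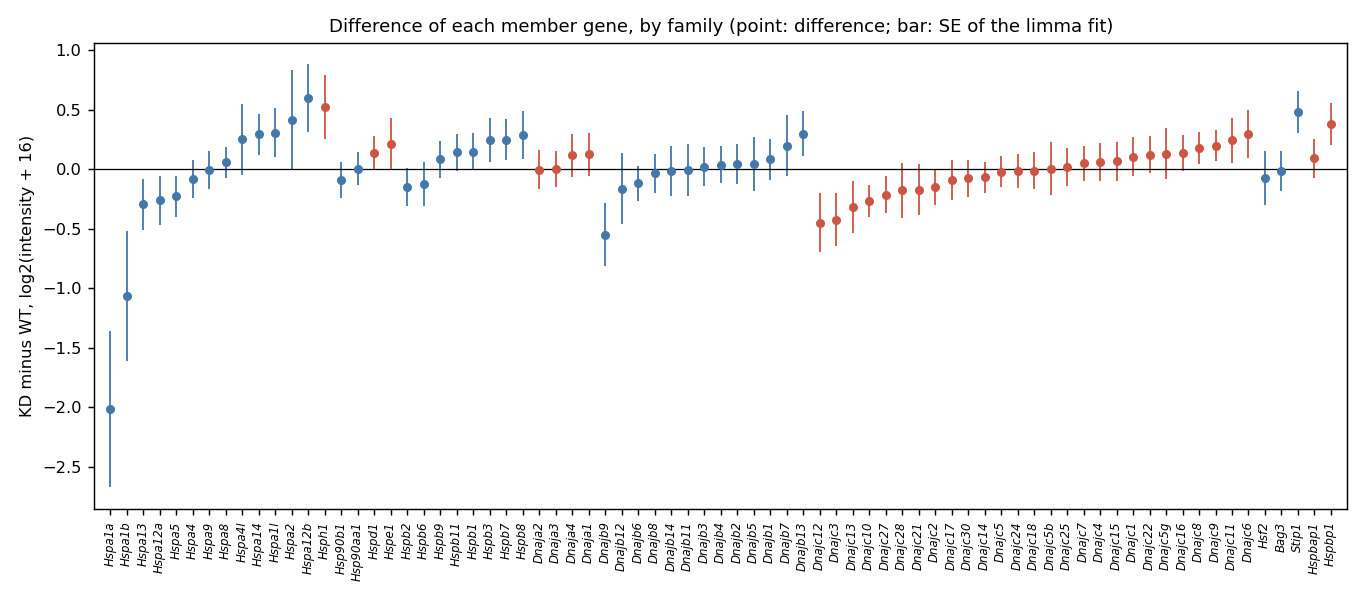
Difference of each of the 75 member genes (PU.1 knockdown minus wildtype, log2(intensity + 16)) with its SE, grouped by family with alternating colours in the order Hspa, Hsph, Hsp90, Hspd and Hspe, Hspb, Dnaja, Dnajb, Dnajc, then Hsf2, Bag3 and Stip1, then the binding proteins Hspbp1 and Hspbap1. Hspa1a at -2.02 and Hspa1b at -1.06 lie apart from the other members, which range from -0.55 to 0.60.

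The other Hsp70 genes showed no such gap. Hspa8, the constitutive cytosolic Hsp70 that folds new proteins and strips clathrin coats, had 12.59, 12.57 and 12.68 in wildtype pools 1, 2 and 3, against 12.62, 12.73 and 12.67 in knockdown pools 1, 2 and 3, so that knockdown minus wildtype was 0.057 (SE 0.13, 95% interval -0.24 to 0.36). One further Hspa8 probe set, 1431182_at, named after its values were seen, was at 9.16, 9.18 and 9.08 in wildtype and 7.82, 8.47 and 8.03 in knockdown pools. It differed by -1.04 (SE 0.19, limma p 0.000599, adjusted p 0.393) where the remaining Hspa8 probe sets differed by 0.062 and 0.15, and the transcript it reads was not determined. Hspa14, which works with ribosome-bound J proteins, differed by 0.29 (SE 0.17) and Hspa12b, an atypical Hsp70 of endothelial cells, by 0.60 (SE 0.29). For Hspa12b wildtype pool 2, at 7.10, lay above knockdown pools 1 and 2, at 6.99 and 6.80. Within the 13 Hspa genes, 6 had higher and 7 lower means.

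Stip1, the Hsp70 to Hsp90 adaptor also called Hop, was at 10.90, 10.55 and 10.68 in wildtype pools 1, 2 and 3, against 11.37, 11.28 and 10.92 in knockdown pools 1, 2 and 3. The groups did not overlap, though knockdown pool 3 exceeded wildtype pool 1 only narrowly. Stip1 differed by 0.48 (SE 0.18, limma p 0.0260, adjusted p 0.66), or 1.40 times the wildtype level, and was the 1 member past the unadjusted threshold upward. It missed that threshold without knockdown pool 1 or 2 (limma p 0.0837 and 0.0754) and without wildtype pool 2 or 3 (limma p 0.0758 and 0.0660). Hsph1, the Hsp110 exchange factor, was at 11.03, 10.48 and 10.91 in wildtype and 11.03, 11.90 and 11.06 in knockdown pools. Its difference of 0.52 (SE 0.27) rested on knockdown pool 2 and was 0.24 without it. Bag3, which couples Hsp70 to autophagy, differed by -0.019 (SE 0.17), and with 1 pool left out it ranged from -0.136 to 0.116. Hsf2, a relative of HSF1, differed by -0.077 (SE 0.23).

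Hspa4l, a further Hsp110 gene, was named after its values were seen. Its 5 probe sets all had higher means in knockdown pools, with differences from 0.25 on the brightest to 0.80 on 1429106_at (SE 0.23, limma p 0.00854). On 1429106_at the pools were at 6.91, 6.75 and 6.88 in wildtype and 7.23, 8.14 and 7.58 in knockdown, so the groups did not overlap. Knockdown pool 2 was highest on all of them. Counted over the 178 probe sets of the members, 7 (3.93%) were higher at an unadjusted p under 0.05, beside 3.78% of all probe sets, and 5 (2.81%) were lower, beside 3.33%.

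For the Hsp90 genes and the mitochondrial chaperonin no difference passed at an unadjusted p under 0.05. Hsp90aa1, the inducible cytosolic Hsp90, was at 11.84, 11.87 and 11.99 in wildtype and 11.80, 11.99 and 11.91 in knockdown pools, which is 0.0047 for knockdown minus wildtype (SE 0.14, 95% interval -0.31 to 0.32). Over the 15 alternatives the difference of Hsp90aa1 ranged from -0.039 to 0.19. Hsp90b1, the Hsp90 of the endoplasmic reticulum (ER), differed by -0.089 (SE 0.15). Hspd1 (Hsp60) and Hspe1 (Hsp10) form the folding chamber of mitochondria and are transcribed from one shared promoter region. Hspd1 was at 11.92, 11.86 and 12.07 in wildtype and 11.98, 12.22 and 12.05 in knockdown pools, and Hspe1 at 11.99, 11.80 and 11.41 in wildtype and 11.80, 12.29 and 11.74 in knockdown pools. Both were highest in knockdown pool 2, with differences of 0.13 (SE 0.14) and 0.21 (SE 0.22) and groups that overlapped. Their 95% intervals ran from -0.20 to 0.46 for Hspd1 and from -0.29 to 0.71 for Hspe1. The window before Hspe1, at chr1:55087898-55088147 on the plus strand, is shown because it held 3 overlapping cores. They make 2 overlapping forms with 3 repeats, each a core with a further inverted GAA or TTC after a gap of the same length.
Hspe1: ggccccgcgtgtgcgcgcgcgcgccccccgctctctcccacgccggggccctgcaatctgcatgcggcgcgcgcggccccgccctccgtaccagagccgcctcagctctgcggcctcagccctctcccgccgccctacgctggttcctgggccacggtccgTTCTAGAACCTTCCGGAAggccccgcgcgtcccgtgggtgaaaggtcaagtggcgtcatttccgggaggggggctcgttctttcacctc
The form with 3 repeats occurs in 0.466% of all windows. Among the 62 members with a window in the table it was found for Hspd1, Hspe1 and Dnajb6. The Hspd1 and Hspe1 windows overlap on opposite strands, so their cores are the same bases. The shorter core was found for 14 members, Hsph1, Dnaja1 and Hspb1 among them. It stood in 16 of the 79 windows of the members, beside 12.8% of all windows. Dnajb6, a J protein that suppresses aggregation, differed by -0.12 (SE 0.15).

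Genes that heat is known to induce were then set side by side, a grouping made from textbook knowledge after the values were seen and therefore not tested. It held Hspa1a, Hspa1b, Hspa8, Hsph1, Hspa4l, Hsp90aa1, Dnaja1, Dnajb1, Hspb1, Bag3 and Stip1. Of these 11 genes, 7 were highest in knockdown pool 2 (63.6%), beside 14.7% of all genes, and 6 were lowest in knockdown pool 1 (54.5%), beside 18.4% of all genes. Over all 75 members knockdown pool 2 was highest for 19 (25.3%). Dnajb1, the main J partner of inducible Hsp70, was at 11.00, 11.21 and 11.18 in wildtype and 10.96, 11.47 and 11.21 in knockdown pools, and differed by 0.083 (SE 0.17), or -0.046 without knockdown pool 2. Dnaja1 differed by 0.12 (SE 0.18), with knockdown pool 1 lowest at 11.50 and knockdown pool 2 highest at 12.08. Knockdown pool 2 was above knockdown pool 1 for Hspa1a, Hspa1b, Hsph1, Dnaja1 and Dnajb1, but not for Stip1. Each of these pools is 1 array, and the share of all genes with that direction was not counted. The low level of knockdown pool 3 was seen in Hspa1a and Hspa1b and not in Hsph1, Dnaja1 or Dnajb1.

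**Figure D3:**
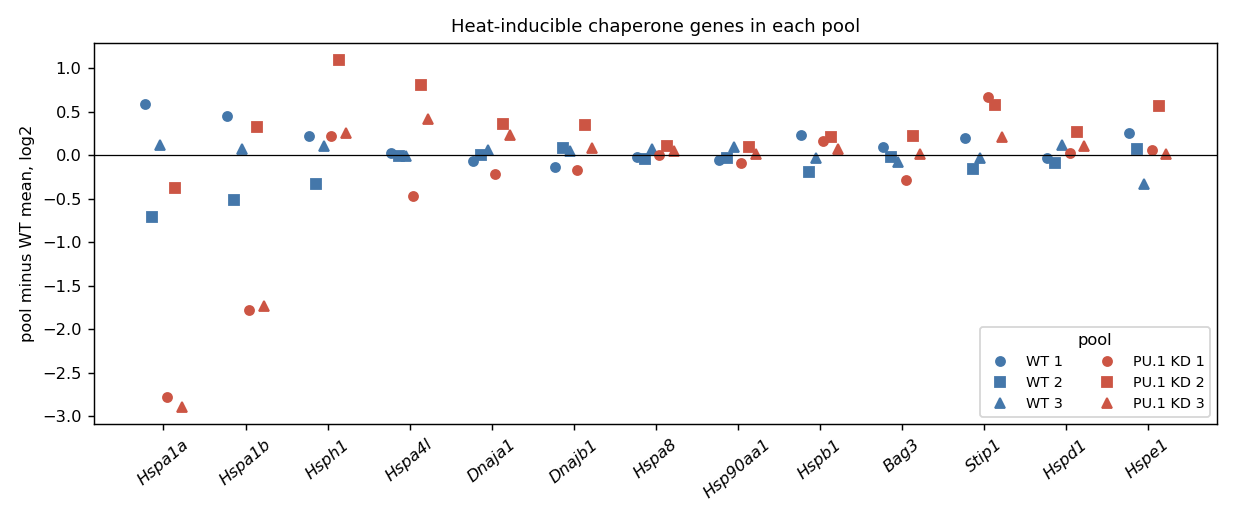
Level of 13 heat-inducible chaperone genes in each pool relative to the mean of the wildtype pools (log2 units; circles, squares and triangles are pools 1, 2 and 3, blue wildtype and red PU.1 knockdown). The genes are the 11 of the grouping in the text, with Hspd1 and Hspe1 added. Hspa1a and Hspa1b in knockdown pools 1 and 3 lie between -2.89 and -1.73 relative to the wildtype mean. Knockdown pool 2 is the highest point for Hspa8, Hsph1, Hspa4l, Hsp90aa1, Dnaja1, Dnajb1, Bag3, Hspd1 and Hspe1.

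Most Hspb genes encode small heat shock proteins, which hold unfolded proteins without ATP. The Hspb genes and most J proteins showed values close to each other in both groups. Of 8 Hspb genes 6 (75%) had higher means in knockdown pools, beside 53.4% of all genes. At an unadjusted p under 0.05, 0 of them passed on their brightest probe set. Hspb1 (Hsp25) differed by 0.15 (SE 0.16), Hspb11 by 0.14 (SE 0.15), Hspb7 by 0.25 (SE 0.17), Hspb2 by -0.15 (SE 0.16) and Hspb6 by -0.13 (SE 0.19). Hspb8, the partner of Bag3, differed by 0.29 (SE 0.20) on its brightest probe set, with knockdown pool 3 lowest of the 6 pools there, and by 0.59 (SE 0.16) and 1.37 (SE 0.53) on its other two, where the groups did not overlap. Of the 4 Dnaja genes, Dnaja2 and Dnaja4 differed by -0.0033 (SE 0.16) and 0.12 (SE 0.18). Dnajb13 and Dnajb7, dim here and known from testis, differed by 0.30 (SE 0.19) and 0.20 (SE 0.26). Of the 27 Dnajc genes, 13 had higher and 14 lower means.

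Among the 27 Dnajc genes the groups did not overlap for Dnajc9 and Dnajc8, higher in knockdown pools (7.41%, beside 8.42% of all genes). They also did not overlap for Dnajc10, which was lower (3.7%, beside 5.39% of all genes). Dnajc9, a histone chaperone of proliferating cells, was at 10.99, 11.00 and 11.06 in wildtype and 11.22, 11.26 and 11.16 in knockdown pools, which is 0.20 for knockdown minus wildtype (SE 0.13). Dnajc8, a spliceosome component, differed by 0.18 (SE 0.13), and Dnajc6, auxilin, by 0.30 (SE 0.20) with overlap. Dnajc10, an ER reductase also called ERdj5, was at 10.44, 10.61 and 10.58 in wildtype and 10.22, 10.33 and 10.27 in knockdown pools. It differed by -0.27 (SE 0.13, limma p 0.0780), and its other probe sets by -0.39 (SE 0.13) and -0.20 (SE 0.14), each with groups that did not overlap. The exact permutation p was 0.1 for each of the 3, the smallest possible.

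Several ER chaperones of the family had lower means in knockdown pools. On their brightest probe sets, 0 of the 8 located there passed at an unadjusted p under 0.05. Dnajc10 passed that threshold with means of probe sets, with a pseudocount of 64 and with the eBayes trend. Dnajb9 passed it without knockdown pool 3, and Dnajc3 without wildtype pool 2. Dnajb9 (ERdj4), an inducible J protein of the unfolded protein response, was at 10.46, 10.09 and 10.18 in wildtype and 9.12, 9.79 and 10.17 in knockdown pools, which is -0.55 for knockdown minus wildtype (SE 0.26). Dnajc3 (p58IPK), which restrains the kinase PERK, differed by -0.42 (SE 0.22) and Hspa5 (BiP), the Hsp70 of the ER, by -0.23 (SE 0.17). All 3 were lowest in knockdown pool 1, and without it Dnajb9 was at -0.26, Dnajc3 at -0.24 and Hspa5 at -0.11. Dnajc3 was at -0.18 as the mean of its probe sets and Hspa5 at -0.12 with medians centred. Dnajb11 (ERdj3) differed by -0.0067 (SE 0.22), and changed sign with medians centred in place of quantiles (0.027). In a grouping by location made after the values were seen, 7 of 8 ER genes had lower means, beside 46.6% of all genes, with a median difference of -0.25, and 5 of the 8 were lowest in knockdown pool 1. Relative to the wildtype mean the median over these genes was -0.22 in wildtype pool 2, inside the range of the knockdown pools from -0.39 to -0.11.

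Further genes of protein folding were read from lists outside these families. Of 22 ER folding and unfolded protein response genes, 18 (81.8%) had lower means in knockdown pools, beside 46.6% of all genes. The median difference was -0.22 beside 0.018 for all genes. At an unadjusted p under 0.05, 1 (4.55%) was lower, beside 3.52% of all genes. That gene was Ern1, the stress sensor IRE1, with 10.32, 10.41 and 10.05 in wildtype and 8.72, 9.48 and 9.79 in knockdown pools and a value of -0.93 for knockdown minus wildtype (SE 0.27, limma p 0.00930, adjusted p 0.564). As the mean of its probe sets Ern1 differed by -0.22 (limma p 0.177), and without knockdown pool 1 by -0.62 (limma p 0.0136). Xbp1, whose transcript IRE1 splices, differed by -0.32 (SE 0.15), while Pdia3 and Calr, of the glycoprotein folding cycle, differed by 0.12 (SE 0.22) and 0.094 (SE 0.19). Wildtype pool 1 was highest for the list, with a mean of 10.66 beside 10.12 and 10.32 for wildtype pools 2 and 3, against 10.22, 10.16 and 10.09 for knockdown pools 1, 2 and 3. Wildtype pool 2 thus lay within the range of the knockdown pools, and without wildtype pool 1 the median was -0.082 and 10 genes of the list were higher. Without wildtype pool 2 the median was -0.35, 1 gene was higher and 7 passed at an unadjusted p.

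Co-chaperones of Hsp70 and Hsp90 leaned the other way, with 20 of 22 measured genes higher in knockdown pools beside 53.4% of all genes, and a median difference of 0.19. Averaged over the list, wildtype pools 1, 2 and 3 stood at 9.22, 9.11 and 9.16, against 9.40, 9.44 and 9.28 for knockdown pools 1, 2 and 3, without overlap. For 9 of the 22 genes (40.9%) all knockdown pools lay above all wildtype pools, beside 8.42% of all genes, and 4 (18.2%) were higher at an unadjusted p under 0.05, beside 4.1%. Those were Fkbp5, Bag2, Fkbp4 and Sgta, and Fkbp4 and Sgta were named after their values were seen. The count was 2 without knockdown pool 1, without wildtype pool 2 or with a pseudocount of 1, and the number with a higher mean stayed between 17 and 20 over the 15 alternatives. Fkbp5, an Hsp90 immunophilin that glucocorticoids induce, averaged 9.26 ± 0.22 (SD, n = 3) in wildtype and 10.16 ± 0.31 (SD, n = 3) in knockdown pools, so that knockdown minus wildtype was 0.91 (SE 0.20, limma p 0.00209, adjusted p 0.473). Bag2, an exchange factor that inhibits the ubiquitin ligase CHIP, averaged 8.46 ± 0.084 (SD, n = 3) in wildtype and 9.01 ± 0.095 (SD, n = 3) in knockdown pools and differed by 0.55 (SE 0.14, limma p 0.00402, adjusted p 0.514). Fkbp4, the related immunophilin of steroid receptors, differed by 0.46 (SE 0.18) and Sgta, a targeting factor for membrane proteins, by 0.45 (SE 0.18). Hsf4 and Hsf5, relatives of HSF1 known from lens and testis, differed by -0.35 (SE 0.63) and -0.19 (SE 0.16).

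**Figure D4:**
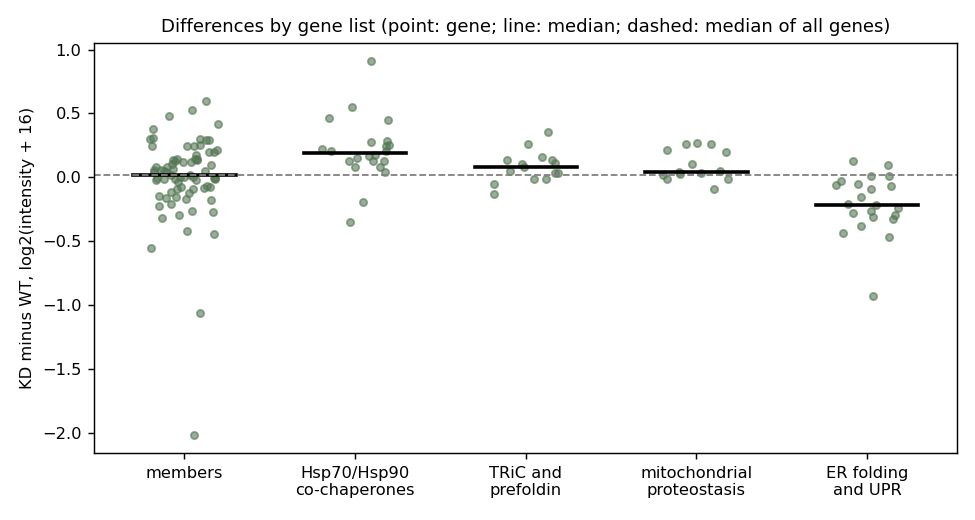
Difference of each gene (PU.1 knockdown minus wildtype, log2(intensity + 16)) for the 75 members and for 4 further gene lists, with the median of each list (black line) and of all genes (dashed line, 0.018). The co-chaperone list has a median of 0.19 and the ER list of -0.22, while the members, apart from Hspa1a and Hspa1b, centre near the median of all genes.

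Cytosolic and mitochondrial folding machines outside the families differed less. Of 15 genes of the chaperonin TRiC and of prefoldin, 11 (73.3%) had higher means, beside 53.4% of all genes, with a median of 0.084. At an unadjusted p under 0.05, 1 was higher (6.67%, beside 4.1% of all genes), Cct3, a TRiC subunit, at 0.35 (SE 0.14). That count was 0 when any pool but wildtype pool 2 was left out, and with means of probe sets. Pfdn1 differed by 0.26 (SE 0.16), Pfdn5 by -0.13 (SE 0.13) and Pdcl3 by -0.053 (SE 0.17). Of 14 mitochondrial chaperones and proteases, 11 (78.6%) had higher means, beside 53.4% of all genes, with a median of 0.044. With the values as deposited, however, 6 did and the median was -0.014, and without wildtype pool 2, 7 did. Clpx and Trap1, a protease subunit and the mitochondrial Hsp90, differed by 0.26 (SE 0.14) and 0.26 (SE 0.15), and Grpel2 and Pam16, of the import motor, by -0.092 (SE 0.14) and -0.010 (SE 0.13).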

How the data were processed

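Each array has a deposited linear intensity for every probe set, and how the authors corrected and scaled it is not given in the labels. Per the labels' protocols, RNA was amplified repeatedly by in vitro transcription before labelling. Values under 1 were set to 1, log2(value + 16) was taken, and the arrays were quantile normalised because their medians differed by over 0.1. For log2 differences, probe sets were tested with limma 3.58.1 in R 4.3.3 (lmFit and eBayes; both directions), p-values were adjusted by Benjamini and Hochberg's method over the 44991 probe sets at a threshold of 0.05, and the script was checked on simulated data. Folds of dim genes are understated on this scale. The number of arrays limits the precision, and p-values measure the spread between pools.

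Genes came from the platform annotation (34921 probe sets with 1 symbol, 930 with several, 9140 with none). Each gene was represented by its probe set of highest mean. Named are the Hspa1 genes, the Hsp90, Hsph, Hspd and Hspe genes, Hsf2, Bag3 and Stip1, in the other families the 2 brightest members and the 2 of smallest p per direction, members at an unadjusted p under 0.05, and 2 genes per direction in each further list. The members, lists and rules were chosen with earlier results of these data known.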

Additional observations from a re-analysis of the deposited data

How the results depend on the processing

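Alternatives were the values as deposited, median centring, pseudocounts of 1 and 64, a filter at the 40th percentile, eBayes with a trend and robust, array weights, the mean of a gene's probe sets, the pool number as a block, and leaving out each array. In all of them 0 members passed adjustment over all probe sets. Hspa1a ranged from -2.82 to -1.58 and Hspa1b from -1.76 to -0.69. The count of members higher at an unadjusted p was 4 with array weights, 2 with the trend, 2 with means of probe sets and 3 with a pseudocount of 64, and 0 to 3 with 1 array left out; the count lower was 2 under each of these 4 settings and 0 to 4 with 1 array left out. The cause was not tested. Whether pools of the same number belong together is not given in the labels. Correlations of same-numbered deviations were 0.178, 0.061 and -0.039, and those of unlike numbers ran from -0.198 to 0.154. With the replicate block the limma p was 0.0235 for Hspa1a and the counts were again 1 higher and 1 lower. With it, 3 co-chaperone genes and 0 TRiC genes were past the unadjusted threshold. For the further lists and the count of higher members the same settings were chosen after seeing the data.

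Small differences changed sign. With array weights Bag3 was at 0.031, Dnaja2 at 0.041, Calr at -0.00349 and Pdia3 at -0.015. With median centring Dnaja2 was at 0.021, Dnajb11 at 0.027 and Pam16 at 0.020. With means of probe sets Hspa8 was at -0.19, Dnajb6 at 0.097 and Grpel2 at 0.056. Leaving out 1 array, the ranges were -0.136 to 0.116 for Bag3, -0.100 to 0.229 for Calr, -0.0915 to 0.135 for Dnaja2, -0.0329 to 0.272 for Dnaja4, -0.0464 to 0.206 for Dnajb1, -0.238 to 0.176 for Dnajb11, -0.0577 to 0.377 for Dnajb7, -0.304 to 0.0855 for Hsf2, -0.0393 to 0.0534 for Hsp90aa1, -0.0573 to 0.0139 for Pam16, -0.150 to 0.060 for Pdcl3 and -0.095 to 0.244 for Pdia3.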
